A study of Mus musculus with 8 samples.

Results

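In male mouse germ cells, the mRNAs of 260 of 21951 protein-coding genes gave many distinct reads of piRNA size. A gene was chosen when its mRNAs held at least 10 distinct sequences, sense and without mismatch, in at least 1 E15.5 library. Each sequence had to be 26 to 29 nt long, begin with T (the U of the RNA) and have at least 2 counts. All 260 genes met this in E15.5 replicate 1 and 7 of them met it in replicate 2 as well. Another 5447 genes held at least 1 such sequence at E15.5. The E15.5 reads therefore selected the genes, and their E15.5 values are given as a description with no test. The libraries address whether mPGCLCs, primordial germ cell-like cells made in culture, have piRNAs. There were 4 groups of 2 libraries: mPGCs (primordial germ cells) of male GOF18 mice, which carry a germ cell reporter, at E12.5, E13.5 or E15.5, and mPGCLCs of the SGET line at D6 of differentiation. The mPGCs came from pooled genital ridges, were sorted with antibodies to SSEA1 and CD61 per the labels and as EGFP-positive cells per the methods, and each replicate came from another litter. Their strain is given as C57BL/6J in the labels and as a mixed background with FVB in the methods. SGET mPGCLCs were differentiated from a single male ESC line of strain B6CBA/129 and sorted from embryoid bodies as Stella-GFP positive and Esg1-tdTomato negative cells. Nothing states that the mPGCLC libraries came from separate differentiations, so p-values measure the spread between these libraries.

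piRNAs are small RNAs bound by PIWI proteins, and in the fetal male germline they guide the silencing of transposable elements. Primary piRNAs are cut from long single-stranded precursors and mostly begin with U. Many precursors are transposon copies or non-coding clusters, and some are mRNAs, whose 3′ UTRs are a known source of sense piRNAs. In the ping-pong cycle a PIWI protein cuts a complementary transcript opposite base 10 of its guide, which leaves a new piRNA with A at its base 10 and a 10-nt overlap with the guide.

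Libraries held 7447873 to 26552524 mapping reads, so 3 counts, the floor used here, stand for 0.113 to 0.403 RPM (reads per 1000000 mapping reads). Intervals and floors cover counting error only, since PCR copies were counted. Reads of 26 to 29 nt beginning with T made up 1.26% and 1.69% of mapping reads (E12.5), 4.88% and 7.92% (E13.5), 49.9% and 50.9% (E15.5), and 1.55% and 1.12% (SGET mPGCLCs). The E15.5 libraries differed in how many sequences carried these reads. Replicate 1 had 184436 distinct ones with at least 2 counts and replicate 2, although deeper, had 73275. As a description, mRNA fragments of 20 to 31 nt from 9 germ cell markers summed to 119 to 2558 reads in each mPGC library and to 0 in both SGET libraries. Single markers differed. Pou5f1 gave 2319 of the 2558 reads of E15.5 replicate 2, Ddx4 had 0 and 1 reads at E15.5, and Tfap2c had 0 in all 8 libraries. Dppa3 (Stella) was at 0 in the SGET libraries, although those cells were sorted as Stella-GFP positive. These fragments therefore cannot check the labels. Of 18 markers of gonadal soma, blood and vessels, fragments were found for Nr5a1 (12 reads) and Kdr (17 and 1 reads), both at E15.5 only, and the defining markers Sox9, Amh, Star, Insl3, Pecam1 and all globins were at 0 in all 8 libraries. In bulk libraries, fewer cells of a type and less RNA per cell cannot be told apart.

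The most abundant sense sequence is shown for 5 of the 7 genes that met the rule in both E15.5 libraries, since these sequences carry the description that follows. Capitals mark the T at the 5′ end.
D10Wsu102e: Tagggcagtggcgcagaaggtagagg
Noct: Tatcagaagtaaagcggagagagaga
Tmem245: Tgtgcatgtataggtagactttttgg
Cbx5: Tgctgtttgtctctgaggtcagtgaga
Abl2: Tgcatgtgaggtagtgtatctgaaag
On GRCm38 the D10Wsu102e sequence lies at chr10:83408031-83408056 on the plus strand, in the annotated 3′ UTR and 42109 nt after the stop codon. The Noct sequence lies at chr3:51240775-51240800, plus strand, in the 5′ UTR of a long Noct transcript. The Tmem245 sequence is at chr4:56877838-56877863 (minus strand), that of Cbx5 at chr15:103194655-103194681 (minus strand) and that of Abl2 at chr1:156646454-156646479 (plus strand). The last 3 lie in 3′ UTRs. None of the 5 had a count in either SGET library, and only that of Noct had any at E12.5, with 2 counts in replicate 2. The libraries weighted them very differently. In E15.5 replicate 1 and replicate 2 the D10Wsu102e sequence had 247 and 3117 counts, the Noct sequence 533 and 5029, and the Tmem245 sequence 0 and 2361.

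Some sequences shared a 5′ end and differed in length. At the D10Wsu102e position the 26-nt form is followed by 27-nt and 28-nt forms, which are shown because they show 3′ ends that vary over a fixed start.
D10Wsu102e 27 nt: Tagggcagtggcgcagaaggtagaggt
D10Wsu102e 28 nt: Tagggcagtggcgcagaaggtagaggtc
The longer forms had 55 and 214 counts in E15.5 replicate 1 and 0 in replicate 2.

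Taken over all 260 genes, sense reads of 26 to 29 nt beginning with T were rare at E12.5, common at E13.5 and E15.5, and rare again in SGET mPGCLCs. Only sequences held by a single protein-coding gene were counted in these and all following values, unless stated. Their summed reads were 2019 and 1561 (E12.5), 112163 and 287998 (E13.5), 338380 and 702369 (E15.5), and 1533 and 1131 (SGET mPGCLCs). As a share of mapping reads this was 0.0271% (95% Wilson interval 0.0260 to 0.0283) and 0.0115% (0.0109 to 0.0121) at E12.5. It was 0.931% and 1.46% at E13.5 and 2.49% and 2.65% at E15.5. The SGET mPGCLC libraries stood at 0.0150% (0.0143 to 0.0158) and 0.0119% (0.0112 to 0.0126). The SGET libraries lie within the range set by the E12.5 libraries. Within piRNA-sized reads the order was another. The genes gave 19.09% and 18.4% of all reads of 26 to 29 nt beginning with T at E13.5, and 4.99% and 5.19% at E15.5. They thus took a larger part of the smaller E13.5 pool in both libraries. In SGET mPGCLCs the share was 0.969% and 1.06%, and at E12.5 it was 2.15% and 0.677%. All other protein-coding genes together gave 1.16% and 1.87% of mapping reads at E13.5 and 2.42% in each library at E15.5. These other genes too took a larger part of the E13.5 pool, so that shift is not particular to the 260 genes. Of reads of 26 to 29 nt beginning with T, they gave 139062 of 587426 and 368920 of 1562635 at E13.5. At E15.5 they gave 328610 of 6785045 and 642977 of 13525240.

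Of the few reads at E12.5 and in SGET mPGCLCs, 1 gene gave a large part. Lars2, the mitochondrial leucyl-tRNA synthetase gene, singled out after its values were seen, gave 86.8% and 41.6% of the reads in E12.5 mPGCs and 72.1% and 75.4% in SGET mPGCLCs. Its reads were 1753 and 649 (E12.5), 566 and 1944 (E13.5), 449 and 12 (E15.5), and 1105 and 853 (SGET mPGCLCs). In RPM its E15.5 libraries (33.0 and 0.452) lay below the other 6 (47.0 to 235), and the groups overlap in all 3 comparisons tested below. Outside E15.5 replicate 1 its reads began 124 to 471 nt after the stop codon. In E15.5 replicate 1, 58.6% of its reads were also held by non-coding or pseudogene transcripts. This share was not computed for the E12.5 and SGET libraries, so the source of their Lars2 reads is uncertain. In the SGET mPGCLCs 240 of the 260 genes had no read in either library, and 4 had more than 3 counts in a library. Besides Lars2 these were D10Wsu102e with 251 and 4 reads, Hinfp, a histone gene transcription factor, with 0 and 271, and Mex3a, an RNA-binding protein gene, with 163 and 0. In each of the last 3 a single sequence carried the reads, 247 of 251 in D10Wsu102e and all reads in Hinfp and Mex3a. At E12.5 147 genes had no read in either library and 24 had more than 3 counts in a library, Lars2 alone in both. In E12.5 replicate 2, 173 of the 208 distinct sequences were read once, and 126 of these 173 had at least 2 counts in another library. The same held for 11 of 12 sequences read once in E12.5 replicate 1, and for 19 of 19 and 7 of 8 in the SGET libraries. Whether they were carried over from another library was not tested.

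D10Wsu102e was the largest source. The gene spans chr10:83360221-83488505 on the plus strand, and the GENCODE transcript used (123179 nt) has a 3′ UTR of 122583 nt. RefSeq ends the gene at 83368835, and 0.888% of its E15.5 replicate 1 reads lay within the RefSeq bounds, so nearly all of them come from the long extension. Sense reads were 2 and 35 (E12.5), 13455 and 27484 (E13.5), 99003 and 196362 (E15.5), and 251 and 4 (SGET mPGCLCs). In RPM, E13.5 stood at 1117 and 1393 and E15.5 at 7279 and 7395, so the 2 stages did not overlap and each pair of libraries lay close together. It held 29.3% and 28.0% of the reads of all 260 genes at E15.5, against 12% and 9.54% at E13.5. Distinct sequences numbered 2363 in E15.5 replicate 1 and 280 in replicate 2, and the highest count of a single one was 336 and 3117. The most abundant sequence in a library thus held a small part of the gene's reads. Sense sequences were spread along the whole extension. Of 62 bins of 2 kb, 61 held a sense sequence in E15.5 replicate 1, 57 in replicate 2 and 56 in E13.5 replicate 2.

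Antisense reads of D10Wsu102e were few before E15.5 and sat in few places. Reads of 26 to 29 nt of any first base on the other strand were 1 and 4 (E12.5), 232 and 1354 (E13.5), 32009 and 80218 (E15.5), and 0 in both SGET libraries. In E15.5 replicate 1, 9 of the bins had at least 20 distinct antisense sequences, in stretches that begin 20, 66, 72, 96 and 106 kb from the stop codon. These bins were chosen on replicate 1. They held 85.9% of its antisense sequences and 28.8% of its sense sequences, and in replicate 2, which did not choose them, 78.2% and 24.6%. Sense sequences were thus spread more evenly along the extension than antisense ones in both libraries.

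**Figure D1:**
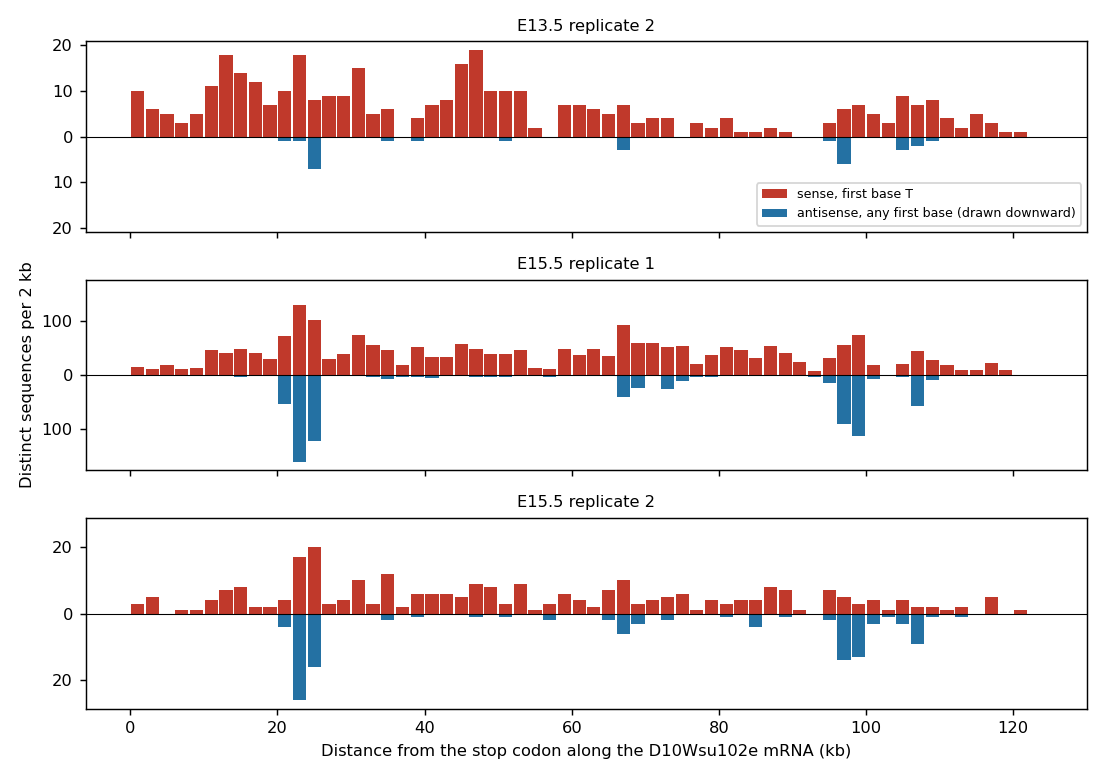
Distinct 26 to 29 nt sequences per 2 kb (vertical axis) against distance from the stop codon of D10Wsu102e in kb (horizontal axis), for E13.5 replicate 2 and both E15.5 libraries, with scales that differ between panels. Sense sequences beginning with T (red, upward) fill 56, 61 and 57 of 62 bins, while antisense sequences of any first base (blue, drawn downward) gather in a few bins, of which those richest in replicate 1 begin at 20, 66, 72, 96 and 106 kb.

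The other 6 genes that met the rule in both libraries had at most 6 reads in a library at E12.5 or in SGET mPGCLCs, except Eif4ebp2 at E12.5, and values are given for 5 of them. Noct encodes nocturnin, a phosphatase related to deadenylases and expressed in a daily rhythm. Its sense reads were 1 and 6 (E12.5), 2344 and 3655 (E13.5), 10963 and 39785 (E15.5), and 0 in both SGET libraries. All of its E15.5 reads fell in the 5′ UTR of the long transcript used, and 51.8% of those in replicate 1 were also held by non-coding or pseudogene transcripts. Noct also had antisense reads, 0 and 396 (E13.5) and 4036 and 13544 (E15.5).

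Eif4ebp2, a repressor of cap-dependent translation, had 75 and 3 reads (E12.5), 4065 and 7305 (E13.5), 6559 and 16794 (E15.5), and 0 in both SGET libraries. All 75 reads of E12.5 replicate 1 were copies of 1 sequence. It had no antisense read in any library, and the 3′ UTR held 97.1% and 93.1% of its E15.5 reads. All of its replicate 1 reads lay inside the RefSeq bounds.

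Tmem245, a transmembrane protein gene, had 1 and 0 reads (E12.5), 427 and 1423 (E13.5), and 5550 and 13532 (E15.5). Cbx5, which encodes the heterochromatin protein HP1 alpha, had 0 and 2 reads (E12.5), 1472 and 6470 (E13.5), and 4334 and 13981 (E15.5). Abl2, a tyrosine kinase gene, had 1 and 3 reads (E12.5), 5019 and 8740 (E13.5), and 4463 and 8100 (E15.5). Tmem245 and Cbx5 had no read in SGET mPGCLCs and Abl2 had 1 in each library. The step from E13.5 to E15.5 differed between these genes. In RPM, Tmem245 stood at 35.5 and 72.1 and then at 408 and 509.6, while Abl2 stood at 416.7 and 442.9 and then at 328.1 and 305.1, so that its E13.5 libraries lay above its E15.5 libraries.

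**Figure D2:**
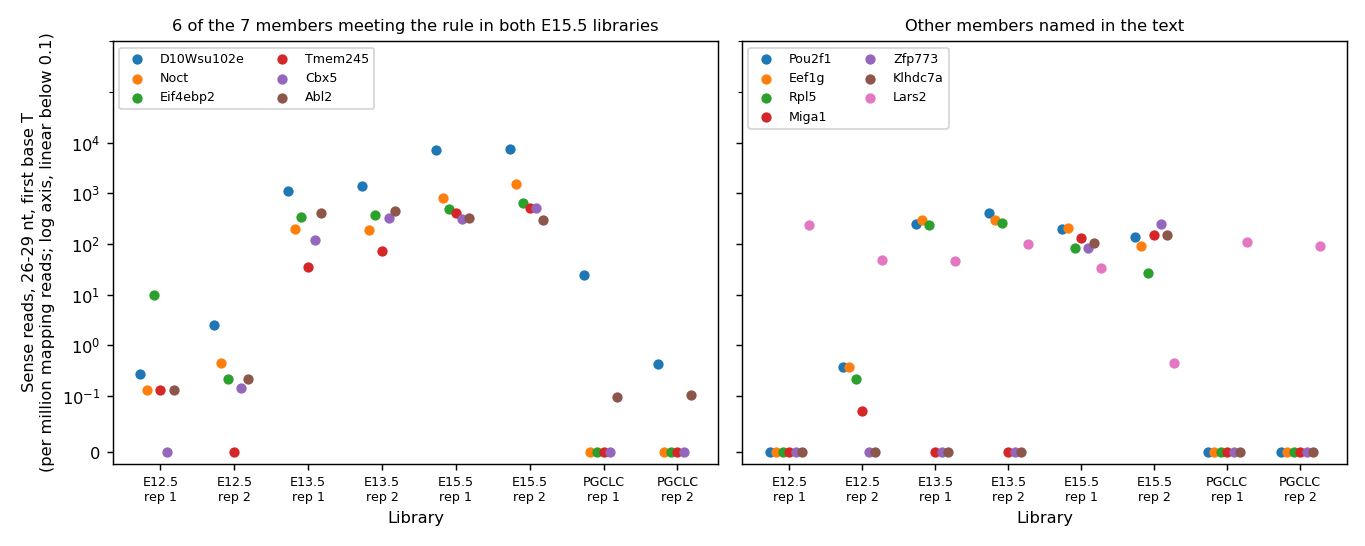
Sense reads of 26 to 29 nt beginning with T in RPM (vertical, log axis that is linear below 0.1) in each of the 8 libraries (horizontal), 1 point per gene and library. PGCLC stands for SGET D6 mPGCLCs. The left panel holds 6 of the 7 genes that met the rule in both libraries, and these rise from at most 10.1 RPM at E12.5 to at least 35.5 RPM at E13.5. Miga1, Zfp773 and Klhdc7a on the right have reads at E15.5 and 0 RPM at E13.5, and Lars2 is present in all libraries.

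Across the 260 genes the steps from E13.5 to E15.5 went both ways. Both E15.5 libraries lay above both E13.5 libraries in 98 genes, a direction that the choice on E15.5 reads favours, and below them in 21. The shares over all genes were not computed for this step, so these counts are a description and do not set the 260 genes apart. Among the 21 were Abl2, the transcription factor gene Pou2f1, the elongation factor genes Eef1g and Eef2, the ribosomal protein genes Rpl4, Rpl5 and Rps4x, and Sec61a1, a subunit of the channel through which proteins enter the endoplasmic reticulum. Pou2f1 had 243.3 and 408.6 RPM at E13.5 and 197 and 137 RPM at E15.5. Rpl5 went from 242 and 258 RPM to 85.4 and 26.7 RPM. At E13.5, 152 genes had more than 3 counts in both libraries, 73 in 1 library and 35 in neither, of which 33 had no read in either. The E13.5 libraries held 564 and 3747 distinct sequences of these genes.

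Most reads came from 3′ UTRs, in about the proportion that 3′ UTRs take of these mRNAs. At E15.5, 73.4% and 72.1% of the sense reads lay in 3′ UTRs (72.8% ± 0.935, SD, n = 2), 20.8% and 19.6% in coding parts and 5.78% and 8.28% in 5′ UTRs. Of distinct sequences, 77.3% and 73.1% lay in 3′ UTRs. Among all 27-nt windows beginning with T in the same mRNAs, 76.2% lie in 3′ UTRs, 20.3% in coding parts and 3.51% in 5′ UTRs. D10Wsu102e weighs heavily here. Without it, 62.4% and 61.2% of reads and 67.9% and 63.3% of distinct sequences lay in 3′ UTRs, against 74.1% of windows, and 29.4% and 27.3% of reads lay in coding parts, against 22.1%. At E13.5, 63.2% and 64.6% of the reads of all 260 genes lay in 3′ UTRs and 32.1% and 31.6% in coding parts. Single genes leaned either way. Of 251 genes with a placed sequence in E15.5 replicate 1, 162 had most of them in the 3′ UTR, 75 in the coding part and 5 in the 5′ UTR. The 3′ UTR share was above its share of windows in 119 genes and below it in 130. The median share was 73.3%, against 74.7% for windows, in mRNAs with a median length of 5658 nt. In the other protein-coding genes with such sequences at E15.5, 46.8% and 55.8% of distinct sequences lay in 3′ UTRs and 44.3% and 36.2% in coding parts, over 4476 and 732 genes.

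**Figure D3:**
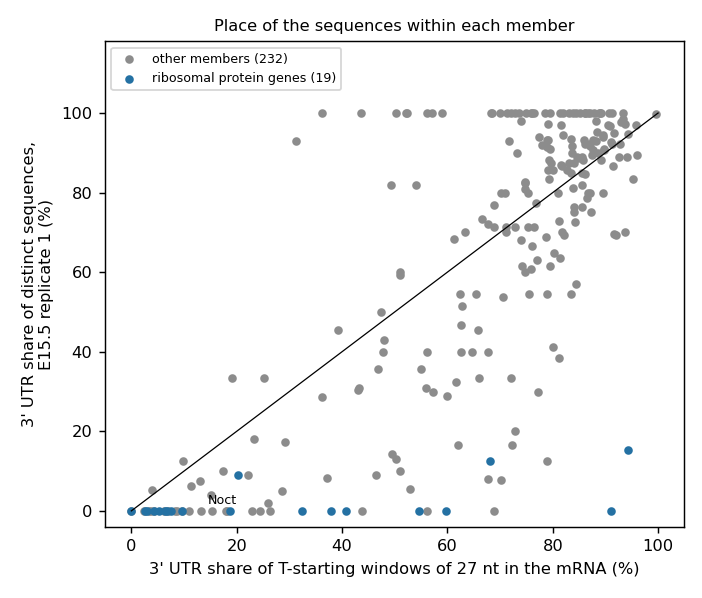
Percent of distinct sequences of E15.5 replicate 1 that lie in the 3′ UTR (vertical) against the percent of T-starting 27-nt windows of the same mRNA that do (horizontal), 1 point per gene for 251 genes, with the line of equal shares. Points lie on both sides of the line, 119 above and 130 below, and the 19 ribosomal protein genes (blue) lie on or below it.

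Ribosomal protein genes were the clearest exception. They made up 19 of the 260 genes, which is 18.6% of the annotated ribosomal protein genes, against 1.18% of all protein-coding genes. In E15.5 replicate 1, 92.5% of their distinct sequences and in replicate 2 94.5% lay in coding parts, where 34.0% of their T-starting windows lie. These windows were summed over the 19 genes, so genes with long annotated transcripts weigh more. The size of the difference in a typical gene is not given by this sum. In E13.5 mPGCs the coding share was 97.8% and 95.9%. Of the 19 genes, 18 had sequences that crossed an exon junction. Such sequences are from the spliced mRNA or from a processed copy of it, and ribosomal protein genes have many such copies. In Rpl5, Rpl19, Rpl7a and Rps7, 90.7% to 100% of the replicate 1 reads were also held by pseudogene or non-coding transcripts, so their source is uncertain. Rpl19 had 0 and 2 reads (E12.5), 1058 and 2845 (E13.5), 1692 and 3792 (E15.5), and 0 in both SGET libraries. Over the 260 genes, 62 had junction-crossing sequences. For 37 genes more than 50% of the replicate 1 reads were also held by non-coding or pseudogene transcripts, and 219 genes had only reads of sequences found in no other protein-coding gene. The window share and the 50% bound were chosen after the values were seen.

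Most reads were sense, and a subset of genes carried the antisense reads. With any first base, 86.2% and 84.3% of the 26 to 29 nt reads at E15.5 were sense (85.3% ± 1.33, SD, n = 2), with 64961 and 153582 antisense reads. Without D10Wsu102e the sense share was 89.4% and 88.5%. In the other protein-coding genes it was 77.0% and 78.0%. At E13.5, 99.8% and 99.0% of the reads of the 260 genes were sense. Antisense reads were found for 108 genes in E15.5 replicate 1 and 44 in replicate 2, 41 of them in both. Antisense reads began with T in 64.1% and 67.7% of cases, and sense reads in 83.2% and 84.9%. The rule asked for sense sequences beginning with T at E15.5. It therefore favours a high sense share against other genes and a high T share of sense reads.

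In 26 genes more than 10% of the reads were antisense in both E15.5 libraries, a bound chosen after the values were seen. D10Wsu102e, Noct, Miga1, Fam163a and the olfactory receptor gene Olfr1388 had the highest antisense RPM. Miga1, a mitochondrial fusion gene, had 1794 and 4096 sense and 2225 and 6714 antisense reads at E15.5, and no sense and 0 and 15 antisense reads at E13.5. Fam163a had 876 and 1719 sense and 2222 and 6635 antisense reads at E15.5. Slc29a3, a nucleoside transporter gene, had 329 and 924 sense and 1521 and 4254 antisense reads. The sense counts are of reads beginning with T. With any first base the sense share was 53.6% and 40.4% in Miga1, 32.4% and 40.5% in Fam163a and 26.5% and 17.9% in Slc29a3. Olfr1388 had 1818 and 5071 sense and 2412 and 4459 antisense reads, and none of its placed replicate 1 reads lay in the RefSeq gene. The same held for Olfr1459, Vmn2r24 and Zfp773, a zinc finger gene whose sense reads were 1136 and 6563 (E15.5) and 0 in the other 6 libraries. Nanos2, an RNA-binding protein gene needed for male germ cell fate, had 349 and 0 sense and 718 and 886 antisense reads at E15.5.

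The 26 genes and the other 234 differed in when their sense reads appeared. Of the 26, 15 (57.7%) had no sense read in either E13.5 library and 5 (19.2%) had more than 3 counts in both. Of the other 234, 18 (7.69%) had none and 147 (62.8%) had more than 3 counts in both. Summed sense RPM of the 26 genes rose from 1453 and 1723 at E13.5 to 9536 and 10840 at E15.5, a ratio of means of 6.41. Without D10Wsu102e it went from 336 and 330.8 to 2257 and 3441, a ratio of 8.54. The other 234 genes went from 7860 and 12870 to 15340 and 15620, a ratio of 1.49. The bound uses E15.5 reads of the same libraries as the ratio, so these values are a description and were not tested.

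A at base 10 was most frequent in sequences that did not begin with T. In sense sequences with another first base, A stood at base 10 in 45.3% of 1817 distinct sequences in E15.5 replicate 1 and 50% of 228 in replicate 2. The mean over the neighbouring bases 8, 9, 11 and 12 was 26.8% and 26.3%. In antisense sequences with another first base the share was 65.1% of 570 and 66.7% of 81, with neighbours at 27.7% and 26.2%. Sense sequences beginning with T had 27.6% and 30%, with neighbours at 24.8% and 24.3%. Antisense sequences beginning with T had 35.7% of 1000 and 29.4% of 153, with neighbours at 26.4% and 28.3%. In the 26 genes with over 10% antisense reads the share among sense sequences not beginning with T was 57.9% and 69.1%, and in the other 234 genes it was 28.6% and 27.6%. At E13.5 it was 27.1% of 96 and 33.0% of 525 over all 260 genes.

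Sense and antisense 5′ ends overlapped by 10 nt more often than by most other lengths. In E15.5 replicate 1, 150 of 1307 antisense 5′ ends had a sense partner at 10 nt, against a median of 69 and a highest value of 85 at the other overlaps from 1 to 25 nt. In replicate 2 it was 9 of 216, against a median of 2 and a highest value of 6. D10Wsu102e alone gave 96 in replicate 1 (highest other value 59) and 3 in replicate 2, where another overlap reached 5. Without it the values were 54 (highest other 39) and 6 (highest other 4). Pairs of this kind are shown for 3 genes with antisense reads, with capitals marking the T at the 5′ end or the A at base 10.
D10Wsu102e sense: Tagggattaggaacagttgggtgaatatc
D10Wsu102e antisense: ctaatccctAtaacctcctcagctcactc
Noct sense: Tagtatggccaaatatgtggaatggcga
Noct antisense: ggccatactAgggagagcggcttttgc
Miga1 sense: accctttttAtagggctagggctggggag
Miga1 antisense: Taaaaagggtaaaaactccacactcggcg
The D10Wsu102e pair lies at chr10:83389160-83389188 (plus strand) and chr10:83389141-83389169 (minus strand) and had 112 and 1170 sense and 30 and 1380 antisense counts in the E15.5 libraries, with none elsewhere. The Noct pair lies at chr3:51241469-51241496 (plus strand) and chr3:51241452-51241478 (minus strand). Its sense sequence had 95 and 456 counts at E13.5 and 496 and 500 at E15.5, and its antisense sequence had 0 and 978 counts at E15.5 and none at E13.5. In the Miga1 pair, at chr3:152331992-152332020 (minus strand) and chr3:152332011-152332039 (plus strand), the antisense sequence begins with T and the sense sequence has the A. Both were found in E15.5 replicate 2 only, with 405 sense and 314 antisense counts.

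**Figure D4:**
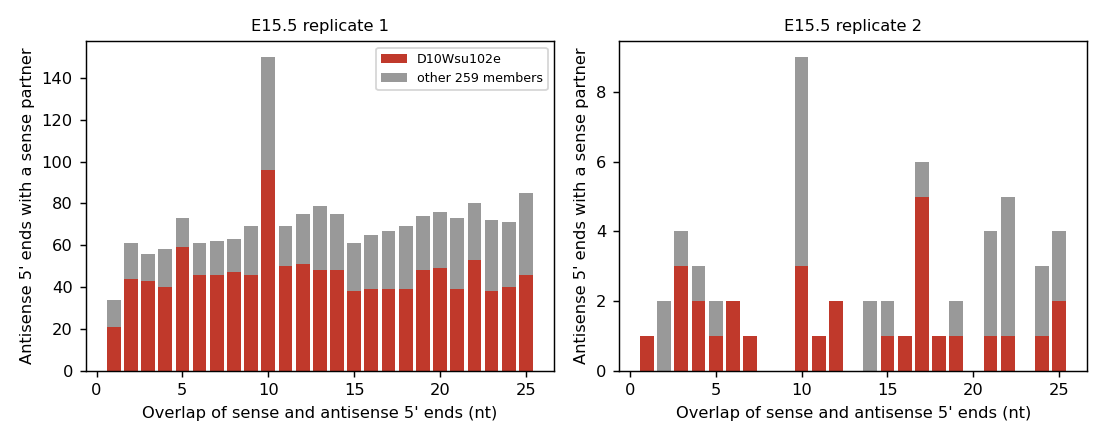
Number of antisense 5′ ends with a sense partner (vertical) at each overlap from 1 to 25 nt (horizontal), in both E15.5 libraries, for D10Wsu102e (red) and the other 259 genes (grey, stacked). The bar at 10 nt is the highest in each panel, 150 in replicate 1 and 9 in replicate 2, where all other bars are 6 or less.

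The E15.5 libraries were alike in the summed reads of these genes, only partly alike in reads per gene and unlike in sequences. Both gave nearly the same share of mapping reads to the 260 genes, and over the genes Spearman's rho was 0.607 for reads and 0.618 for distinct sequences. These genes are not independent replicates and share the length of their mRNAs. In RPM, 111 genes were within 2-fold between the libraries, and 89 differed by more than 4-fold or were absent from replicate 2. Distinct sequences with any count numbered 8099 in replicate 1 and 1054 in replicate 2, and their median count was 31 and 480.5. Shared by both libraries were 221 sequences, which is 2.73% of those of replicate 1 and 21% of those of replicate 2. 5′ ends do not depend on variable 3′ ends, and 337 of them were shared, which is 4.77% and 34.3%. Counting sequences of any number of genes, as the rule does, the median gene had 16 distinct sequences with at least 2 counts in replicate 1, which chose it, and 1 in replicate 2. Drawing replicate 2 down to the depth of replicate 1 left 7 genes that met the rule there.

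**Figure D5:**
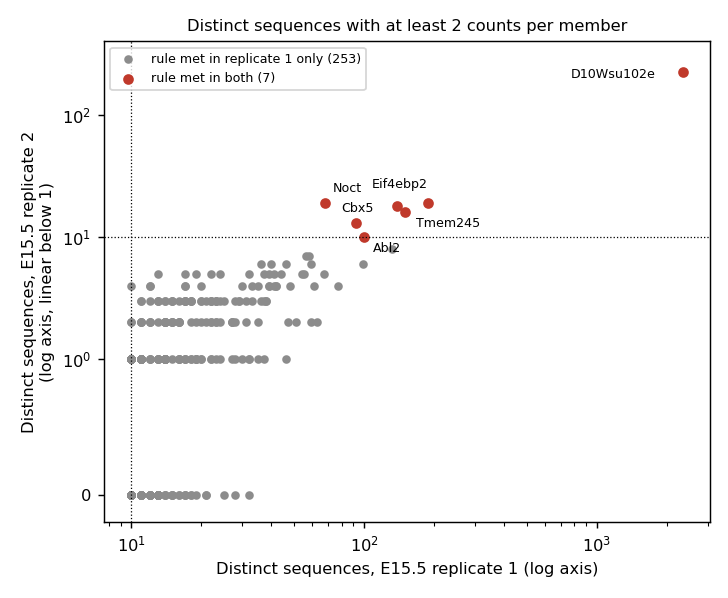
Distinct sequences of 26 to 29 nt beginning with T and with at least 2 counts, per gene and counting sequences held by any number of genes, as the rule does, in E15.5 replicate 2 (vertical, log axis that is linear below 1) against replicate 1 (horizontal, log axis), for 260 genes. Dotted lines mark the threshold of 10. All points lie at or beyond it on the horizontal axis, and the 7 genes in red, 6 of them with their names, do so on both.

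Near the threshold, by the same counting, the choice was close. Exactly 10 sequences were found for 26 genes, 10 to 14 for 116 and at least 50 for 20, while 36 genes outside the set had 9. Just inside lay the chromatin protein gene Hmgn1, with 10 sequences in replicate 1 and 2 in replicate 2, the condensin subunit gene Ncaph2 with 10 and 2, and Zfp709 with 10 and 1. Just outside lay the vomeronasal receptor gene Vmn1r88 with 9 and 4, Gramd1b with 9 and 1, and the ribosomal protein gene Rpl3 with 9 and 2. By reads these did not separate. Counting sequences of any gene, Vmn1r88 had 679 and 5359 reads and Hmgn1 608 and 3108.

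The lengths of the sense reads were compared with all piRNA-sized reads within the 26 to 29 nt of the rule. This cut keeps any 2 means close, so their closeness is no result. Among reads of 26 to 29 nt beginning with T, their mean length was 27.06 and 27.13 nt at E15.5, against 27.20 and 27.27 nt for all such reads of the libraries, and 27.19 and 27.33 nt against 27.21 and 27.31 nt at E13.5. At E15.5, 36.1% and 31.8% of the reads were 26 nt long, against 31.2% and 28.75% of all such reads. At 27 nt the shares were 32.6% and 35%, against 31.6% and 31.2%. At E13.5 the 26-nt share went the other way, 28.0% and 24.4% against 31.4% and 27.7%. The base that follows the 3′ end in the mRNA was T for 24.9% and 26.4% of distinct sequences, against a mean of 26.1% and 25.9% over bases 2 to 12 after it. No excess of T after the 3′ end was seen at this depth in either library.

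Whether reads of these genes changed between E12.5 and E13.5, and between either stage and SGET mPGCLCs, could be tested, since no library of these groups chose them. Of 2217 genes tested in a fit over all 8 libraries, 240 were members of the set. The E15.5 libraries that chose them enter the filter on low counts and the estimate of the spread. The counts below are therefore no support for the set as a whole. Between E12.5 and E13.5, 81 of the 240 rose and none fell (edgeR quasi-likelihood test, Benjamini-Hochberg adjusted p under 0.05, total mapping reads as library size). Over all genes tested, 82 rose, 3.7%, and 0 fell, with 321 and 1 at an unadjusted p under 0.05. With only these 2 groups in the fit, 470 of 622 genes tested rose and 7 fell, and 146 of the called genes were members. Most called genes were then outside the set. Both E13.5 libraries lay above both E12.5 libraries in 151 of the 240 genes, and in 23.2% of all genes tested. The clearest were D10Wsu102e, 884-fold higher at E13.5 with a log2 fold change of 9.76 ± 0.51 (SE, edgeR adjusted p = 1.4e-75), and Noct, 661-fold higher (9.29 ± 1.16, edgeR adjusted p = 1.5e-12). Abl2 was 2420-fold higher (edgeR adjusted p = 1.78e-09) and Eif4ebp2 68.8-fold (4e-05). Each ratio is set against few E12.5 reads and is uncertain in size, and in each of these genes both E13.5 libraries lay above both E12.5 libraries. The SE of D10Wsu102e is smaller than the distance between its own E12.5 libraries, which had 2 and 35 reads. Fitted on these 2 groups alone, its log2 fold change was 9.74 with an edgeR adjusted p of 0.00762, with TMM it was 2.11 (0.928), and with DESeq2 3.45 (adjusted p = 0.424).

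Among the genes with no read at E12.5, Sec61a1 was at least 778-fold higher at E13.5 (edgeR adjusted p = 0.00297), Tfcp2l1 at least 772-fold (7.88e-06) and March8 at least 718-fold (0.00174). The bounds take 3 counts over the E12.5 group as the floor. Tfcp2l1 encodes a transcription factor of naive pluripotency and March8 a membrane-bound ubiquitin ligase. Ndst1, a heparan sulfate enzyme gene, was at least 563-fold higher (edgeR adjusted p = 0.0215). Tfcp2l1 had 1297 and 2214 reads at E13.5 and 3494 and 5487 at E15.5 and Ndst1 1366 and 926 and then 622 and 1. These calls depend on how libraries were scaled. With reads of 21 to 23 nt as library size, which moved the median log2 fold change by -0.56, edgeR called 66 genes higher, 65 of them members. With TMM normalization, which moved that median by -0.29, edgeR called 0 genes. DESeq2, whose size factors moved that median by -5.26, called 10 higher and 33 lower over all genes, 2 of them members. Leaving out a library left 26 (without E12.5 replicate 1), 29 (without E12.5 replicate 2), 39 (without E13.5 replicate 1) or 23 (without E13.5 replicate 2) genes that rose.

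Between SGET mPGCLCs and E12.5 mPGCs, 1 member was called higher and 1 lower (edgeR, each 0.0451% of the 2217 genes tested), with 3 and 26 genes at an unadjusted p under 0.05. D10Wsu102e was 8.81-fold higher in SGET mPGCLCs (log2 fold change 3.12 ± 0.38, SE, edgeR adjusted p = 1.1e-12), yet the groups overlap. The 247 copies of 1 sequence in SGET replicate 1 set this call, and without that library the log2 fold change was -1.75 with an edgeR adjusted p of 1. Fitted on the 2 groups alone the edgeR adjusted p was 0.384. Eif4ebp2 was at least 33.8-fold lower (edgeR adjusted p = 6.58e-07), which rests on the 75 copies of 1 sequence in E12.5 replicate 1, and without that library it was not called (edgeR adjusted p = 1). DESeq2 called 124 genes and edgeR with TMM 0. In 6 of the 240 members both SGET libraries lay below both E12.5 libraries and in none above, against 0.902% and 0.0451% of all genes tested.

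Between SGET mPGCLCs and E13.5 mPGCs, 100 of the 240 members fell and none rose (edgeR, Benjamini-Hochberg adjusted p under 0.05). Over all genes tested 105 fell, 4.74%, and 0 rose, with 357 and 0 at an unadjusted p under 0.05. With only these 2 groups in the fit, 508 of 524 genes tested fell and 1 rose, and 151 of the called genes were members. Both SGET libraries lay below both E13.5 libraries in 152 of the 240, and in 23.7% of all genes tested. D10Wsu102e was lower in SGET mPGCLCs (log2 fold change -6.65 ± 0.45, SE, edgeR adjusted p = 2.39e-45). Without SGET replicate 1 the log2 fold change was -11.52, and without SGET replicate 2 it was -5.67. Noct was at least 1250-fold lower (edgeR adjusted p = 4.24e-20), Eif4ebp2 at least 2330-fold (8.43e-16), Pou2f1 at least 2140-fold (3.63e-09), Eef1g at least 1980-fold (1.79e-08) and Rpl5 at least 1650-fold (4.6e-06). The comparison shares its E13.5 libraries with the one above, and the E12.5 and SGET groups are both near 0 in these genes. With TMM normalization edgeR called 0 genes, with reads of 21 to 23 nt as library size it called 101, and DESeq2 called 92 lower and 10 higher in SGET mPGCLCs. Leaving out a library left 51 (without E13.5 replicate 1), 39 (without E13.5 replicate 2), 15 (without SGET replicate 1) or 16 (without SGET replicate 2) genes.

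By function the 260 genes were varied. Of a list of 46 genes of the piRNA and other small RNA pathways, 2 were members, neither of which encodes a PIWI protein. Ago3, an Argonaute gene of the AGO clade, which binds miRNAs, had 305 and 2159 reads at E13.5 and 586 and 181 at E15.5, and Dnmt3a, a DNA methyltransferase gene, 72 and 491 and then 578 and 1. Ago3 fell between E13.5 and SGET mPGCLCs (edgeR adjusted p = 0.0258) and was not called between E12.5 and E13.5 (0.102), and Dnmt3a was called in neither (0.311 and 0.272). Of 39 germ cell genes, 3 were members. Trim71, an RNA-binding ubiquitin ligase gene, had 0 and 1 reads (E12.5), 428 and 2672 (E13.5) and 3067 and 7653 (E15.5), rose from E12.5 to E13.5 (edgeR adjusted p = 0.000134) and was at least 562-fold lower in SGET mPGCLCs than at E13.5 (8.81e-06). Nr6a1, a nuclear receptor gene, had 254 and 823 reads at E13.5 and 426 and 1958 at E15.5 and was not called (edgeR adjusted p = 0.0656 against E12.5 and 0.0547 against SGET mPGCLCs). Nanos2 was the third.

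Of 29 abundant housekeeping genes, 5 were members. Fth1, the ferritin heavy chain gene, had 2028 and 5859 reads at E13.5 and 2308 and 6386 at E15.5. Of the ribosomal protein genes, 63 were tested, and 8 rose from E12.5 to E13.5 and 12 were lower in SGET mPGCLCs than at E13.5, against 3.7% and 4.74% of all genes tested. From E12.5 to E13.5 their median fitted log2 fold change was 9.16, against 8.23 over all genes tested. With each group of 3 counts or fewer set to 3 counts, the medians of log2 RPM ratios were 6.27 for ribosomal protein genes, 7.77 for the 225 members with a value and 4.95 over all genes tested. Against the same shares, and 1.18% of all genes that were members, the other lists were as follows. Among 470 zinc finger genes 14 were members, and of 95 tested 6 rose from E12.5 to E13.5 and 6 were lower in SGET mPGCLCs than at E13.5. Zbtb37 had the most reads of these, 1073 and 3979 (E13.5) and 5019 and 5853 (E15.5). Among 409 ubiquitin pathway genes 7 were members, Fbxl18, Fbxo41 and Fbxl20 among them, and of 63 tested 3 rose and 5 were lower in SGET mPGCLCs. Among 68 translation factor genes 3 were members, Eef1g, Eef2 and Eif4ebp2, which all rose between E12.5 and E13.5. Among 140 splicing and RNA-binding genes 4 were members, of which Rbm15b rose. None of 70 replication-dependent histone genes, 13 mitochondrially encoded genes and 18 soma, blood and vessel markers was a member.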

How the data were processed

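Small RNA was measured in 8 libraries. The deposited counts are whole-number counts of distinct read sequences, 1 table a library. To make them, the authors trimmed adapters with cutadapt (version 3.2), removed the 4 random bases at each end, which were not used as molecular identifiers, and mapped reads of 15 nt or more end to end to GRCm38 with STAR (version 2.5.3a), keeping 1 random place for reads with several. A file therefore holds no genome position.

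Sequences of 20 to 31 nt were matched without mismatch to GENCODE M21 transcripts on both strands, and reads of sequences held by a single protein-coding gene were summed per gene. Introns and repeats were not searched, so a sequence may also lie elsewhere in the genome. A place in the mRNA was read from the coding transcript with the most matched sequences. RefSeq bounds are those of GRCm38.p6. The window background counts all 27-nt windows beginning with T in the same mRNAs.

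Genes passing filterByExpr (2217) were tested with edgeR (version 4.0.16, quasi-likelihood, all 8 libraries in 1 fit, library size from all mapping reads), with Benjamini-Hochberg adjustment over them. The common dispersion was 7.19. DESeq2 (version 1.42.0, size factors from positive counts) was an alternative. Matching was tested against a plain text search of sequences from the libraries, the rule on made-up counts and the edgeR fit on simulated counts. Totals per library were 7447873 to 26552524 reads. Replicate numbers did not pair libraries, since correlations of deviations between groups were -0.159 to 0.0341.

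Named genes are members that met the rule in both E15.5 libraries, the 5 with the most antisense reads at E15.5, the 5 with the most sense reads at E13.5, up to 5 called in each direction per comparison, up to 4 per list, and the 3 nearest the threshold on each side. Members and lists were chosen with earlier results of these data known. Other small RNA classes were not analysed here, and a few genes and sequences that these rules select are not reported here.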

Additional observations from a re-analysis of the deposited data

How the results depend on the processing

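The rule for a member gene kept 238 to 354 genes under 8 alternatives. It gave 741 genes with at least 5 sequences, 93 with at least 20, 158 with 26 to 27 nt only and 7 when both E15.5 libraries had to meet it.

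Counts of called genes depended on the scaling and kept to 66, 2 and 101 with reads of 21 to 23 nt as library size. From E12.5 to E13.5, 82 genes rose, and edgeR called 0 with TMM, 16 with no filter, 23 with any first base, 470 (and 7 lower) with only the groups compared, 3 of 7 tested with numbers of distinct sequences, and DESeq2 called 10 (33 lower). Between SGET mPGCLCs and E12.5 the 2 calls became 0 with TMM, any first base or distinct sequences, 1 with no filter, 9 with only the groups compared and 124 with DESeq2. Between SGET mPGCLCs and E13.5 the 105 genes that fell became 0 with TMM, 32 with no filter, 58 with any first base, 508 with only the groups compared and 1 with distinct sequences. Leaving out a library gave 23 to 39, 1 to 3 and 15 to 51 calls. With the replicate block they were 28, 2 and 36, and the replicate numbers do not pair libraries. The causes were not tested.

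Of 892 results for single genes, 580 kept direction and call, 309 lost the call and 3 reversed. D10Wsu102e between SGET mPGCLCs and E12.5 ran from a log2 fold change of -1.75 (without SGET replicate 1) to 5.5 (without E12.5 replicate 2), and between SGET mPGCLCs and E13.5 it was 1.17 with TMM. Eif4ebp2 between SGET mPGCLCs and E12.5 was 0.21 with any first base.

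The 3′ UTR share at E15.5 was 75.2% for distinct sequences, 71.6% for all sequences, 88.8% for the 7 genes meeting the rule in both libraries and 61.8% without D10Wsu102e. The coding share was 0.813% in the 7 genes and 28.3% without D10Wsu102e. The sense share was 88.1% for first base T and 88.95% without D10Wsu102e. The tests on numbers of distinct sequences and the alternatives with all transcripts and without D10Wsu102e were chosen after seeing the data. Those on unique genome places were not run, since no genome was used here. With 2 libraries a group and few reads at E12.5 and in SGET mPGCLCs, small changes in single genes were not detectable at this depth.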
